A study of Mus musculus with 17 samples.

Results

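The ADAM family (a disintegrin and metalloprotease) comprises membrane proteins that join a metalloprotease domain to a disintegrin domain. The count table of *Inha* WT and *Inha* KO mouse testis held 32 ADAM genes among 23362 genes, chosen by symbol alone: Adam followed by a number and at most 1 letter, or Adamdec1, for which no row was found. From their known sites of expression, 20 members were taken as germ cell genes (*Adam1a*, *Adam1b*, *Adam2*, *Adam3*, *Adam4*, *Adam5*, *Adam6a*, *Adam6b*, *Adam18*, *Adam20*, *Adam21*, *Adam24*, *Adam25*, *Adam26a*, *Adam26b*, *Adam29*, *Adam30*, *Adam32*, *Adam34* and *Adam39*). The other 12 were 8 broadly expressed proteases (*Adam8*, *Adam9*, *Adam10*, *Adam12*, *Adam15*, *Adam17*, *Adam19* and *Adam33*), 3 adhesion proteins without protease function (*Adam11*, *Adam22* and *Adam23*) and *Adam7*, known from the epididymis. The expression filter passed 31 members. It left out *Adam7*, which had 6 counts in WT animal 79783 and none in any other animal.

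RNAseq was performed on decapsulated testes of C57/Bl6 mice, with microdissected tumour regions (TM), tumour associated tubules (TAT) and ‘normal’ tubules distant from tumours (N) of 3 *Inha* KO animals, and testis tissue of 3 *Inha* WT animals. *Inha* encodes the inhibin alpha subunit, and KO testes form gonadal stromal tumours. The animals were adult, aged postnatal day 48 to 52 by the sample labels and day 53 to 55 by the protocol. TM, TAT and N came from the same 3 KO animals (79781, 79813 and 79853), so the KO regions share animals, and all 3 regions were compared with the same 3 WT animals (79783, 79811 and 79852). There were 6 TM, 4 TAT, 4 N and 3 WT libraries. The additional KO libraries all came from the testes of animal 79813, and libraries of an animal and region were summed, which left n = 3 animals in each group. Below, a KO sample is the sum of the libraries of an animal and region. Levels are given as CPM, counts scaled to a common library size after TMM normalisation, which are not adjusted for gene length and are therefore not ranked between genes.

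Library totals were 9139835 to 18995984 counts in TM, 17413667 to 25065616 in TAT, 24739160 to 32382283 in N and 6349358 to 35454195 in WT, the shallowest being WT animal 79783. *Inha* had 0.510 to 5.24 CPM in the 9 KO samples, against 62.9 to 70.6 CPM in the 3 WT animals. The levels of germ cell marker genes differed between the KO animals. The summed level of 12 spermatid markers in TM was 3.93% of the WT mean in animal 79781, 11.8% in 79813 and 1.51% in 79853, and that of 8 spermatocyte markers was 7.97%, 29.0% and 3.62% in the same order. *Ldhc*, a germ cell lactate dehydrogenase, made up 82.0% of the spermatocyte sum in WT, and the other 7 markers summed to 13.4%, 51.6% and 10.5% of WT in TM (the sums without the most abundant marker were chosen after seeing the data). Spermatogonia markers (6 genes) had another order, with sums of 15.3%, 48.0% and 28.5% of WT in TM. *Dmrtb1* made up 94.1% of their WT sum, and the other 5 summed to 151.4%, 426.4% and 447.9%. Of the 6 markers, 4, 2 and 1 were below the WT mean in the same order of animals. Leydig cell markers (6 genes) summed to 74.3 to 324.9 CPM in TM, 262.4 to 397.6 CPM in TAT and 314.2 to 388.9 CPM in N, against 2516 to 5417 CPM in WT, and without *Insl3*, the most abundant of them, to 54.0 to 166.7 CPM in TM, 99.5 to 153.7 CPM in TAT and 60.2 to 72.5 CPM in N, against 263.4 to 416.2 CPM in WT.

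Proteolytic ADAMs bind a zinc ion through 3 histidines in their metalloprotease domain, and shed the ectodomains of growth factors, cytokines, receptors and adhesion proteins at the cell surface. In rodents the family also has many testis genes, several of which lack the zinc site, and whose products form complexes on spermatids and sperm. Mouse sperm need ADAM3 to pass from the uterus into the oviduct and to bind the zona pellucida, and ADAM1 and ADAM2 are the subunits of fertilin.

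The zinc site is the sequence feature that separates proteases from the remaining members, and its coding stretch of 33 bases is shown for members of each kind from the longest coding transcript of GENCODE M21 (GRCm38). The stretches run 5′ to 3′ on the coding strand, with capitals for the codons that keep the 3 histidines, the glutamate and the glycine of the site. *Adam10*, *Adam17* and *Adam19* are broad proteases, *Adam24* and *Adam1a* are germ cell genes with the site, and *Adam29*, *Adam3* and *Adam2* are germ cell genes without it. *Adam23* is an adhesion member, aligned, like the others without the site, to the closest in protein sequence of the members that have it.
Adam10: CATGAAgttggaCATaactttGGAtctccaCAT
Adam17: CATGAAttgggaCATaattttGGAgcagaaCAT
Adam19: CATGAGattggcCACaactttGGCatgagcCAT
Adam24: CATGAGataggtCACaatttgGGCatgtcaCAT
Adam1a: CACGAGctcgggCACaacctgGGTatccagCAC
Adam29: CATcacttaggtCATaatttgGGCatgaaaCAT
Adam3: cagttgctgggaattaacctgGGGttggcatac
Adam2: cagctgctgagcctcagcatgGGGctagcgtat
Adam23: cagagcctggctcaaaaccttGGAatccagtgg

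All 5 marked codons were present in 11 of the 20 germ cell members and in 8 of the other 12, which are the 8 broad proteases. *Adam29* kept 4 of them, without the glutamate, and *Adam2*, *Adam3* and *Adam23* kept 1, the glycine. The gene structure also divided the family. The open reading frame lay in 1 coding exon in 15 germ cell members, whereas *Adam2*, *Adam3*, *Adam5*, *Adam18* and *Adam32* had 19 to 22 coding exons and the other 12 members had 16 to 30.

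Most germ cell members lie in clusters. Chromosome 8 carries 12 of them. *Adam18* (chr8:24602246-24674755), *Adam3* (chr8:24677225-24725852), *Adam5* (chr8:24727093-24824369) and *Adam32* (chr8:24836140-24948804) follow each other on the minus strand, and 806 bases beyond *Adam32* begins the span of the broad protease *Adam9* (chr8:24949611-25016927), also on the minus strand. *Adam24*, *Adam25*, *Adam20* and *Adam39* form a second chromosome 8 cluster with 25686 to 70008 bases between neighbours, and *Adam26b*, *Adam26a* and *Adam34* a further one. Some members are similar enough that they may share reads. *Adam25* and *Adam39* were 91.4% identical in protein sequence, *Adam6a* and *Adam6b* 89.8% and *Adam26a* and *Adam26b* 88.4%. Fractional counts, the mark of reads split between genes, occurred in 11 germ cell members and in none of the other 12. The levels of these 11 are uncertain individually. *Adam1a* also overlaps *Mapkapk5*, *Adam4* overlaps *Cox16* and *Adam34* overlaps *Gm5347* on the same strand. Whether similar copies or overlapping genes gave the fractional counts was not tested.

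The upstream sequence of 2 members from each kind is printed to show single examples of low and of high CpG content in the family, with capitals for each CG. The 250 bases before the transcript start are from the RefSeq promoter table for GRCm38.p6, for *Adam20* (chr8:40793023-40793272, plus strand), *Adam29* (chr8:55906965-55907214, minus strand), *Adam10* (chr9:70678732-70678981, plus strand) and *Adam17* (chr12:21373633-21373882, minus strand).
Adam20: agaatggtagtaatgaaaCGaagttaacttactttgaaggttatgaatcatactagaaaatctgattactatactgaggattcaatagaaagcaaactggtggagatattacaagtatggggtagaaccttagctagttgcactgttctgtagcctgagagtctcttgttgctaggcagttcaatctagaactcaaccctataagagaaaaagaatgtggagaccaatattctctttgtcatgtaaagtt
Adam29: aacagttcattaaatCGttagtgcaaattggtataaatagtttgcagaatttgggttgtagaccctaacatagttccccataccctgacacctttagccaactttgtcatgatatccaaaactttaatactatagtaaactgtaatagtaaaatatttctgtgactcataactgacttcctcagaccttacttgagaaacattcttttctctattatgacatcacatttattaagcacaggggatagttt
Adam10: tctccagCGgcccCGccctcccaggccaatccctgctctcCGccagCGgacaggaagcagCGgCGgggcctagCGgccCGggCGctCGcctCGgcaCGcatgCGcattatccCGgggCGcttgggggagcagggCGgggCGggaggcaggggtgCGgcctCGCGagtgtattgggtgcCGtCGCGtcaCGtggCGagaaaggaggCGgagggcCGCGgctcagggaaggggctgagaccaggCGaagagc
Adam17: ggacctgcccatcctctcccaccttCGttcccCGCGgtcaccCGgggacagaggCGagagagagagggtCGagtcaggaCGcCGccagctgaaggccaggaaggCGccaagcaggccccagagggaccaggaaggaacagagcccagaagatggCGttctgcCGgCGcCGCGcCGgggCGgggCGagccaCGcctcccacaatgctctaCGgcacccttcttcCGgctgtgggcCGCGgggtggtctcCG

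These windows held 1 CG in *Adam20* and *Adam29*, 29 in *Adam10* and 23 in *Adam17*. Among all 27025 promoters of the table, 56.0% held 5 or more CG. Only 10 of the 20 germ cell members and 7 of the other 12 had a promoter in the table, which is too few for a statement on either set. The 10 germ cell windows held 0 to 4 CG. Of the 7 others, *Adam19* held 5.33 on average over its 3 windows, *Adam8* 6, *Adam22* 17, *Adam15* 18 and *Adam23* 27.

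The comparison of TM with WT asked which ADAM genes differ between tumour regions and WT testis. All 20 germ cell members fell in TM and 5 of the 11 other members tested rose, where 30.6% of all 19791 genes tested were called lower and 27.8% higher. Genes counted as called had a fold change of more than 1.5 in either direction and an adjusted p below 0.05. The log2 fold change of the germ cell members was -4.91 to -2.80 with a median of -3.43, that of the other members -1.36 to 4.23 with a median of 1.38, and the median of all genes was -0.07. In all 20 germ cell members every TM sample was below every WT animal, as in 33.1% of all genes. In pieces of tissue, fewer cells of a type and less RNA per cell cannot be told apart. All 12 spermatid markers (median -3.89) and 7 of 8 spermatocyte markers (median -2.10) fell in the same samples. Of 6 spermatogonia markers, 2 rose and 1 fell (median 1.28). The part of these cells in the ADAM result was not tested.

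**Figure D1:**
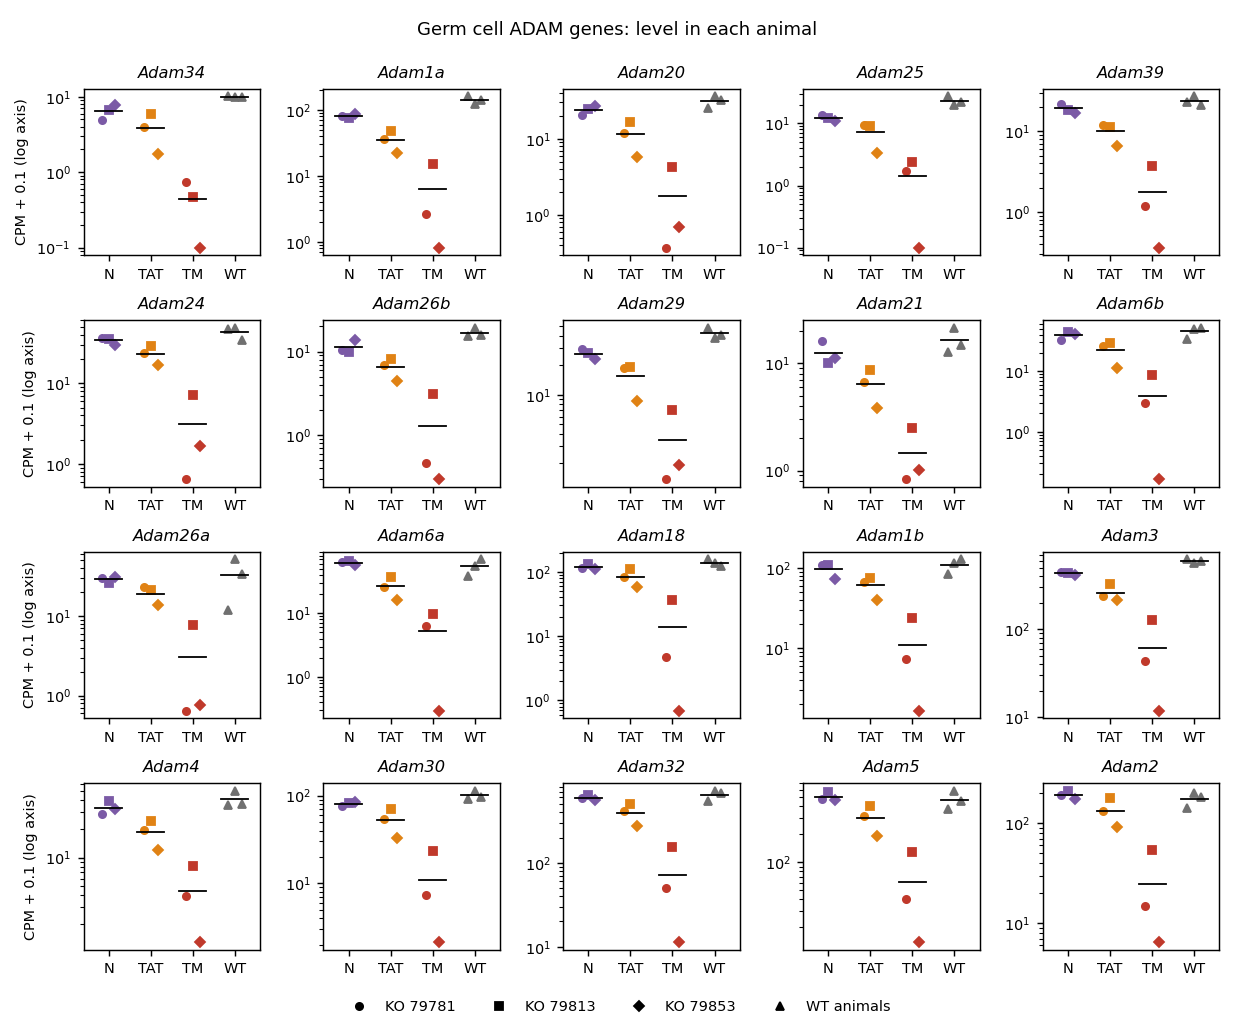
Level of each germ cell ADAM gene (CPM plus 0.1, log axis) in N, TAT, TM and WT, ordered by fold change in TM against WT, with 1 symbol per animal and a line at the group mean. In every panel the 3 TM points lie below the 3 WT points, and the TM of animal 79813 (square) is the highest TM point for all genes but *Adam34*.

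*Adam34* (testase 4), a gene of the testase group with 1 coding exon, had the lowest log2 fold change. It was at 0.640, 0.366 and 0 CPM in TM of animals 79781, 79813 and 79853, against 10.1, 9.76 and 9.97 CPM in the WT animals (log2 fold change -4.91, SE 0.83, adjusted p = 0.000398). The 0 in animal 79853 allows up to 0.197 CPM, the level of 3 counts in that library. *Adam1a*, the alpha subunit of the fertilin that stays inside testicular germ cells in the mouse, was at 2.56, 15.2 and 0.721 CPM in TM, against 161.2, 121.8 and 143.2 CPM in WT (log2 fold change -4.47, SE 0.80, adjusted p = 0.000561). The TM of animal 79813 was the highest of the 3 and still below every WT animal. *Adam20* was at 0.274, 4.15 and 0.590 CPM in TM, against 24.9, 36.0 and 31.9 CPM in WT (-4.06, SE 0.74, adjusted p = 0.000652).

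*Adam24*, *Adam39*, *Adam29*, *Adam21* and *Adam4* completed the 8 germ cell members with the smallest p. *Adam24* (testase 1), a sperm surface protein linked in mice to the block to polyspermy, was at 0.548, 7.03 and 1.57 CPM in TM, against 46.5, 48.6 and 34.3 CPM in WT. *Adam39* was at 1.10, 3.61 and 0.262 CPM in TM, against 23.2, 27.2 and 21.2 CPM in WT. *Adam29*, which lacks the zinc site, was at 1.28, 6.94 and 1.84 CPM in TM, against 48.3, 37.8 and 40.8 CPM in WT. None of the 3 genes overlapped between the groups. *Adam21* had the smallest p of the germ cell members, with 0.731, 2.38 and 0.918 CPM in TM, against 12.7, 21.4 and 14.7 CPM in WT (-3.53, SE 0.52, adjusted p = 0.000187). *Adam4* was at 3.84, 7.99 and 1.18 CPM in TM, against 36.1, 50.4 and 36.4 CPM in WT (-3.20, SE 0.53, adjusted p = 0.000371).

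The members with the best known function in fertilisation fell with the rest. *Adam3* (cyritestin) was at 43.0, 127.5 and 11.7 CPM in TM, against 625.8, 574.2 and 600.4 CPM in WT (-3.30, SE 0.61, adjusted p = 0.000741). *Adam2*, the fertilin beta subunit, had the smallest fall of the germ cell members, with 14.8, 53.5 and 6.36 CPM in TM, against 141.1, 200.3 and 183.8 CPM in WT (-2.80, SE 0.59, adjusted p = 0.00159). *Adam18* had the largest adjusted p (0.00814), and its call was lost without KO animal 79781 (adjusted p = 0.0686) and when only TM and WT were fitted (0.0527).

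The level of the germ cell members relative to WT differed by animal and by gene. In TM the median over the 20 members was 6.45% of the WT mean in animal 79781 (0.886% to 11.3%), 18.5% in 79813 (3.68% to 30.5%) and 1.82% in 79853 (0% to 5.64%). Of the 20 members, 19 were under 10% of the WT mean in TM of animal 79781, 1 in 79813 and 20 in 79853. The summed level of the 20 genes in TM was 6.87%, 22.6% and 2.01% of the WT mean in the same order, where the WT animals had sums of 2508, 2991 and 2785 CPM. The order of the 3 animals was that of the spermatid markers and of the spermatocyte markers with or without *Ldhc*, but not that of the spermatogonia markers.

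**Figure D2:**
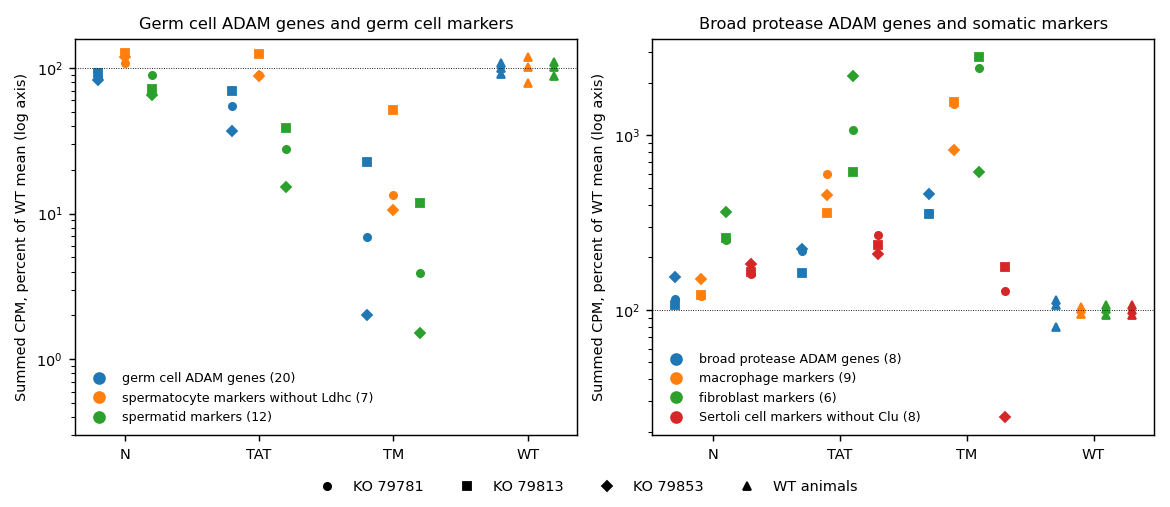
Summed CPM of ADAM gene sets and marker lists in each animal, as percent of the WT mean (log axis), for N, TAT, TM and WT; symbols mark animals and colours the lists, with the spermatocyte markers drawn without *Ldhc* and the Sertoli cell markers without *Clu*, the most abundant gene of each list. In TAT and TM the germ cell ADAM sum of each animal lies above the spermatid sum and below the spermatocyte sum, and the broad protease ADAM sum is above every WT animal while the macrophage and fibroblast marker sums reach higher percentages.

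The broad proteases behaved differently. *Adam10*, *Adam15*, *Adam17* and *Adam19* rose in TM, and none of the 8 fell. *Adam10*, the sheddase that cleaves Notch receptors and N-cadherin, was at 63.2, 56.5 and 72.6 CPM in TM, against 13.8, 14.7 and 17.4 CPM in WT (log2 fold change 2.06, SE 0.28, adjusted p = 0.000122). *Adam17*, which releases tumour necrosis factor and ligands of the EGF receptor, was at 54.6, 51.4 and 75.4 CPM in TM, against 18.4, 8.63 and 15.7 CPM in WT (2.10, SE 0.29, adjusted p = 0.000140). For both genes every TM sample lay above every WT animal, as in 30.9% of all genes, and the TM of animal 79853 was the highest. *Adam17* overlaps *Iah1* on the opposite strand, and the sources used here do not state how strand was used in counting, though the name of the deposited sheet may refer to the forward strand.

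*Adam19* (meltrin beta) was at 1.65, 5.79 and 6.16 CPM in TM, against 1.24, 0.496 and 0.286 CPM in WT (2.89, SE 0.77, adjusted p = 0.00643). *Adam15*, known from endothelium and other cells, was at 6.31, 9.07 and 8.85 CPM in TM, against 1.77, 1.92 and 3.91 CPM in WT (1.66, SE 0.49, adjusted p = 0.0116). The groups did not overlap for either gene once libraries were summed. The single TM libraries of animal 79813 had 0.603 to 10.2 CPM of *Adam19*, the lowest below WT animal 79783 (1.25 CPM). The WT level of *Adam19* rested on 28 counts over the 3 WT animals. *Adam23*, an adhesion protein that binds LGI ligands, had the largest increase, with 13.9, 9.65 and 3.54 CPM in TM, against 0, 0.298 and 0.955 CPM in WT (4.23, SE 0.88, adjusted p = 0.00143). Its WT level rested on 29 counts over the 3 WT animals.

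The remaining 6 members were not called. *Adam8*, known from macrophages and neutrophils, was at 5.58, 4.85 and 7.93 CPM in TM, against 0.354, 3.14 and 3.29 CPM in WT (1.38, SE 0.68, adjusted p = 0.0979). *Adam9* was at 3.93, 3.28 and 4.65 CPM in TM, against 2.83, 1.55 and 1.62 CPM in WT (1.01, SE 0.53, adjusted p = 0.116). *Adam32*, 806 bases from *Adam9*, was at 50.3, 152.4 and 11.2 CPM in TM, against 545.7, 718.8 and 676.7 CPM in WT (-3.18, SE 0.66, adjusted p = 0.00149). *Adam9* and its germ cell neighbour thus had log2 fold changes of opposite sign, the first of them not called. *Adam11* was at 0.274, 1.02 and 0.983 CPM in TM, against 1.24, 1.89 and 2.82 CPM in WT, without overlap (-1.36, SE 0.70, adjusted p = 0.109). *Adam8*, *Adam9* and *Adam11* were called by DESeq2 (adjusted p = 0.0428, 0.0443 and 0.0298). With total library size *Adam8* and *Adam9* were called by edgeR (adjusted p = 0.0443 and 0.0468). *Adam11* was called lower by limma-voom on the 17 libraries (adjusted p = 0.02805). *Adam12*, *Adam22* and *Adam33* had at most 216 counts in TM and 37 in WT, and their groups overlapped.

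**Figure D3:**
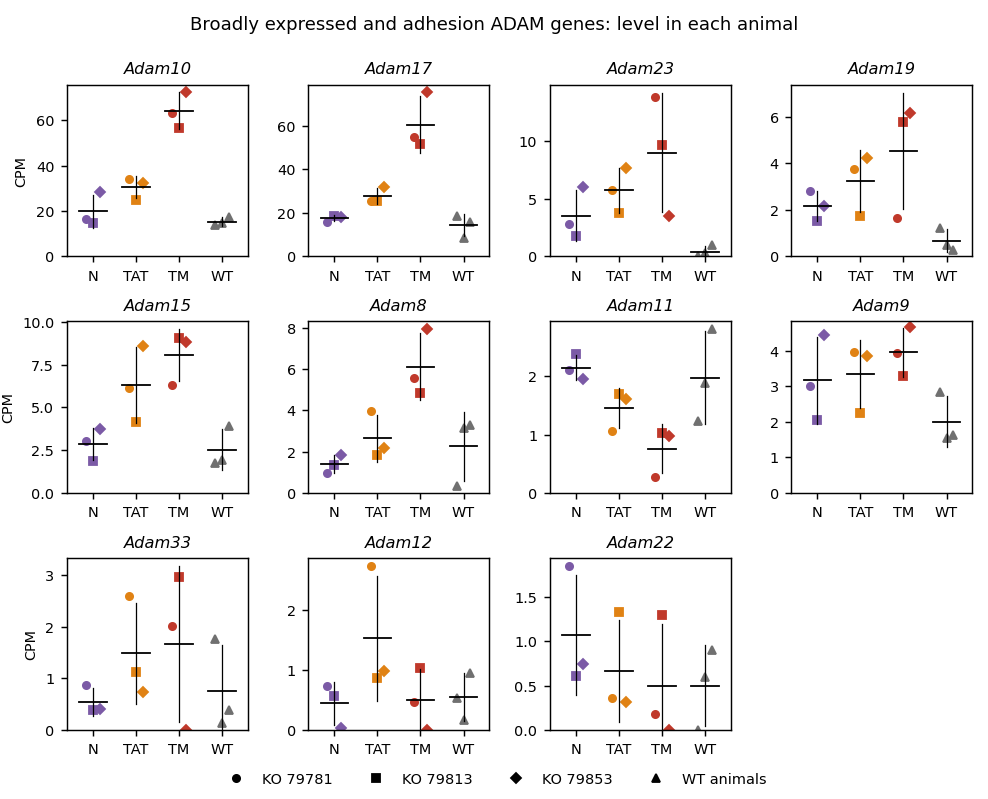
Level of the 11 broadly expressed and adhesion ADAM genes tested (CPM, linear axis from 0) in N, TAT, TM and WT, with 1 symbol per animal, a line at the mean and a bar of 1 SD (n = 3 animals). *Adam10* and *Adam17* have their 3 TM points above all other points, whereas *Adam12*, *Adam22* and *Adam33* overlap between groups.

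Markers of other somatic cells moved in the same samples. In TM 7 of 9 macrophage markers rose, and they summed to 887.6, 920.6 and 487.0 CPM, against 61.2, 59.8 and 56.2 CPM in WT. All 6 fibroblast, 6 of 7 endothelial, 4 of 5 smooth muscle and myoid, and all 3 neutrophil markers rose as well. Of 9 Sertoli cell markers 2 rose and 1 fell, with sums of 3477, 4652 and 3078 CPM in TM, against 1364, 2182 and 1787 CPM in WT. Beside these marker counts, 27.8% of all genes were called higher in TM and 30.6% lower. *Clu*, a secreted chaperone, led these sums, and the other 8 Sertoli cell markers summed to 713.3, 970.8 and 134.1 CPM in TM, against 514.2, 592.0 and 553.5 CPM in WT. In TM of animal 79853, 7 of the 9 were below the WT mean, *Wt1* at 2.20% and *Cldn11* at 1.34% of it. The broad protease sum was 137.7, 134.8 and 175.6 CPM in TM, against 40.7, 30.8 and 43.5 CPM in WT. Animal 79853 had the highest broad protease sum in TM and the lowest macrophage, fibroblast, endothelial and smooth muscle sums, but also the highest neutrophil sum (38.0 CPM, against 8.50 and 5.63 CPM in TM of animals 79781 and 79813). The part of these cells in the ADAM levels was not tested.

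TAT, the tubules next to tumours, were compared with WT to see whether the same genes differ there. By edgeR no germ cell member was called and 4 of the 11 other members rose (*Adam10*, *Adam17*, *Adam19* and *Adam23*), where 4.61% of all genes were called lower and 14.4% higher (2850 higher and 912 lower, against 2514 and 1792 with RLE scaling and 4220 and 582 with total library size). All 20 germ cell members had a negative log2 fold change (-2.02 to -0.39, median -1.09, against 0.07 for all genes). An unadjusted p under 0.05 by edgeR was found in 7 of the 20, and in 6910 of all 19791 genes tested. In 17 germ cell members every TAT sample was below every WT animal, as in 21.7% of all genes. DESeq2 called 9 of the 20 lower, limma-voom on the 17 libraries 8, and a fit of TAT and WT alone 16. Without KO animal 79813 the count was 7, and without 79853 it was 1.

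*Adam1a* had the lowest germ cell level relative to WT, with 35.6, 47.6 and 22.1 CPM in TAT, against 161.2, 121.8 and 143.2 CPM in WT (-2.02, SE 0.71, adjusted p = 0.0669). *Adam21* was at 6.54, 8.59 and 3.75 CPM in TAT, against 12.7, 21.4 and 14.7 CPM in WT (-1.37, SE 0.47, adjusted p = 0.0615). *Adam29* was at 18.6, 19.3 and 8.50 CPM in TAT, against 48.3, 37.8 and 40.8 CPM in WT (-1.45, SE 0.51, adjusted p = 0.0654). In each of the 3 genes, as in *Adam4* (19.7, 24.2 and 11.9 CPM in TAT, against 36.1, 50.4 and 36.4 CPM in WT), animal 79853 was the lowest and no TAT sample reached WT. The summed germ cell ADAM level in TAT was 54.9% of the WT mean in animal 79781, 69.6% in 79813 and 37.2% in 79853. Spermatocyte markers summed to 57.6%, 82.0% and 49.4% and spermatid markers to 27.8%, 38.8% and 15.3% in the same animals. Without *Ldhc* the spermatocyte markers summed to 89.6%, 125.1% and 88.1%. None of the 8 had an unadjusted p under 0.05 in TAT by edgeR (median log2 fold change -0.02), against 6910 of all 19791 genes.

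Of the 4 genes that rose in TAT, *Adam10* and *Adam17* also differed between TM and TAT in the test within the KO testes, whereas *Adam19* and *Adam23* did not pass it. *Adam10* was at 34.2, 24.9 and 32.4 CPM in TAT, against 13.8, 14.7 and 17.4 CPM in WT (0.99, SE 0.27, adjusted p = 0.0251). *Adam17* was at 25.6, 25.6 and 31.96 CPM in TAT, against 18.4, 8.63 and 15.7 CPM in WT (0.97, SE 0.28, adjusted p = 0.0321). These were 1.99-fold and 1.97-fold levels, and in both genes every TAT sample lay above every WT animal, as in 26.0% of all genes. *Adam19* was at 3.75, 1.74 and 4.22 CPM in TAT, against 1.24, 0.496 and 0.286 CPM in WT (2.39, SE 0.76, adjusted p = 0.0443). *Adam23* was at 5.78, 3.77 and 7.66 CPM in TAT, against 0, 0.298 and 0.955 CPM in WT (3.58, SE 0.86, adjusted p = 0.0134). The 4 calls were lost without WT animal 79811 or without KO animal 79781, while 1 was made without WT animal 79852, 2 without KO animal 79853 and 3 without WT animal 79783. *Adam15* was at 6.13, 4.17 and 8.60 CPM in TAT, against 1.77, 1.92 and 3.91 CPM in WT, and was called by DESeq2 (adjusted p = 0.0486) and with total library size (0.0342) but not by edgeR with TMM scaling (0.0805). In TAT 5 of 9 macrophage, 5 of 7 endothelial and 4 of 6 fibroblast markers rose, where 14.4% of all genes were called higher.

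In N, the KO tubules distant from tumours, no ADAM gene was called by edgeR against WT, where 0.0404% of all genes were. At an unadjusted p under 0.05 there were no germ cell members and 2 others, *Adam19* and *Adam23*, and 1502 of all 19791 genes tested. *Adam23* was at 2.84, 1.73 and 6.07 CPM in N, against 0, 0.298 and 0.955 CPM in WT (2.88, SE 0.84, adjusted p = 0.423), and was called by DESeq2 (adjusted p = 0.0296), whereas limma-voom called no ADAM gene. *Adam19* was at 2.80, 1.53 and 2.18 CPM in N, against 1.24, 0.496 and 0.286 CPM in WT (1.81, SE 0.75, adjusted p = 0.599). Both were higher in every N sample than in every WT animal, as in 12.3% of all genes. Before summing, the N library from testis 2 of animal 79813 had 1.17 CPM of *Adam19*, below WT animal 79783 (1.25 CPM). The germ cell members had a median log2 fold change of -0.32 (-0.94 to 0.18), and 7 of them were lower in every N sample, as in 10.3% of all genes. *Adam1a*, at 80.9, 76.0 and 85.8 CPM in N against 161.2, 121.8 and 143.2 CPM in WT, was called only when N and WT were fitted alone (adjusted p = 0.0410).

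**Figure D4:**
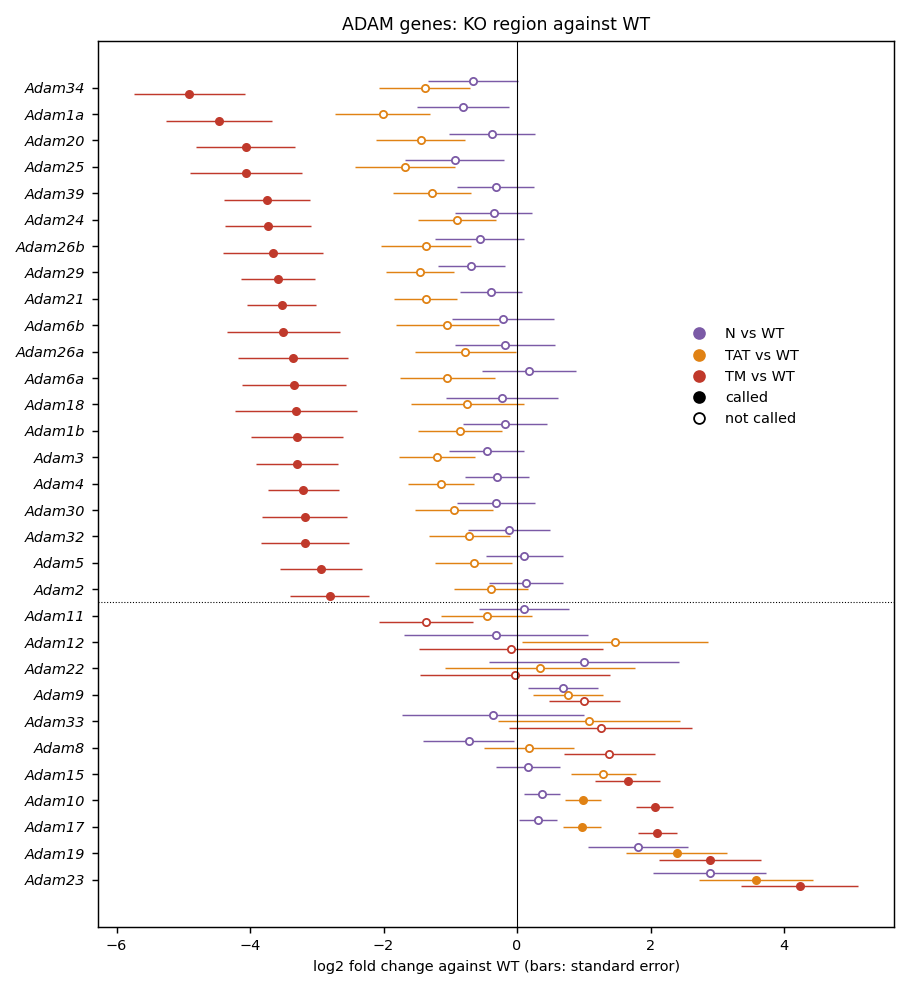
Log2 fold change against WT of the 31 ADAM genes tested in N, TAT and TM, with bars of 1 standard error and filled points for called genes; the dotted line parts the 20 germ cell members (above) from the other 11 (below). The germ cell members lie at -4.91 to -2.80 in TM, -2.02 to -0.39 in TAT and -0.94 to 0.18 in N, and the 3 comparisons share the same WT animals.

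Within the KO testes, TM was compared with TAT and with N, and TAT with N, with the animal as a block. Against TAT, 19 germ cell members fell in TM, where 17.7% of all genes were called lower, and *Adam25* did not pass (-2.63, SE 0.87, adjusted p = 0.0604). The germ cell log2 fold changes were -3.56 to -2.19. *Adam10* (1.11, SE 0.22, adjusted p = 0.0165) and *Adam17* (1.15, SE 0.21, adjusted p = 0.0164) rose in TM against TAT, where 7.65% of all genes were called higher. *Adam19*, *Adam15* and *Adam23* had log2 fold changes of 0.57, 0.47 and 0.80 with adjusted p of 0.566, 0.430 and 0.386. These counts rested on animal 79781: without it 0 of the germ cell and 0 of the other members were called. Without the block 12 germ cell members were called.

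Against N, all 20 germ cell members fell in TM (-4.57 to -3.15), where 28.5% of all genes were called lower, and *Adam8*, *Adam10*, *Adam15* and *Adam17* rose, where 24.9% were called higher. *Adam8* was at 5.58, 4.85 and 7.93 CPM in TM, against 0.989, 1.38 and 1.87 CPM in N (2.14, SE 0.56, adjusted p = 0.0144). Without animal 79781, 6 germ cell members and 2 others were called, and 2 others were called without animal 79813. No ADAM gene was called in TAT against N by edgeR, as was no gene of the 19293 tested (0%). With unadjusted p under 0.05 there were 0 germ cell and 3 other members, and 4517 of the 19293 genes tested. DESeq2 called 3 germ cell and 1 other member and limma-voom 2 and 1. In 17 germ cell members every TAT sample was below every N sample, as in 21.2% of all genes. The other 3, *Adam1b*, *Adam34* and *Adam2*, overlapped between the groups but were lower in TAT than in N within each animal. The median log2 fold change of the germ cell members was -0.89.

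Among the germ cell members the level kept in TAT and TM differed by gene. The mean in TAT was 24.7% of the WT mean for *Adam1a* and 76.2% for *Adam2*, with the other 18 between them, and in TM 3.37% for *Adam34* and 14.2% for *Adam2*. *Adam5* (63.9% in TAT and 13.1% in TM) and *Adam32* (61.0% and 11.02%) stood near *Adam2*, and *Adam25* (31.1% and 5.72%) and *Adam20* (36.7% and 5.40%) near *Adam1a*. All 20 members were called lower in TM, 11 with the zinc site and 9 without it, so the calls cannot show a difference by site. Their median levels in TM were 7.07% of WT with the site and 10.1% without it, and the difference between these sets was not tested.

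**Figure D5:**
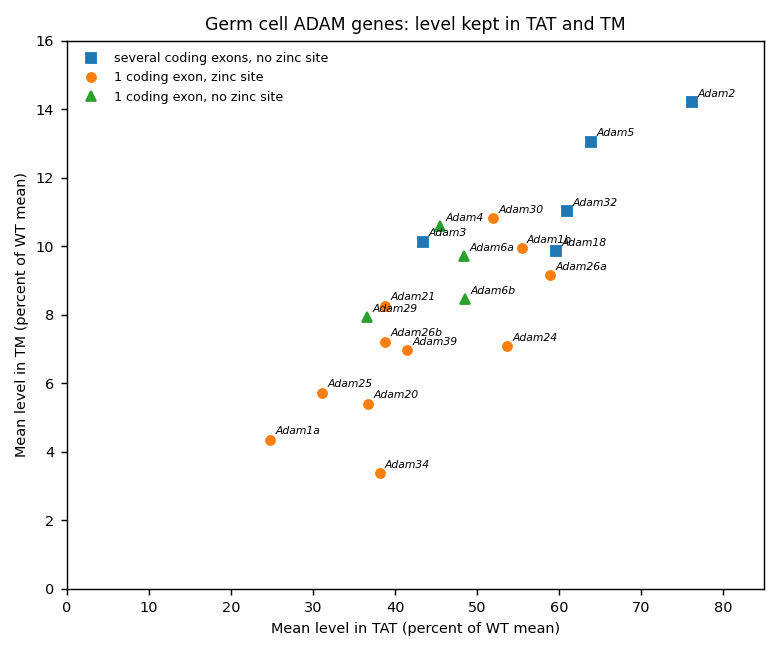
Mean level of each of the 20 germ cell ADAM genes in TAT (x axis) and in TM (y axis), both as percent of the WT mean, with symbols for coding exons and zinc site. *Adam2* is at the upper right (76.2% and 14.2%) and *Adam1a* at the lower left (24.7% and 4.34%), and both axes share the WT mean of a gene.

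Sperm ADAMs need chaperones and modifying enzymes in the germ cell, and 12 such genes were examined. In TM 11 of 12 fell, with 30.6% of all genes called lower. *Pmis2*, a sperm protein needed for ADAM3 on the sperm surface in mice, was at 13.7, 28.5 and 4.46 CPM in TM, against 194.1, 225.2 and 200.7 CPM in WT (-3.72, SE 0.51, adjusted p = 0.000129). *Calr3* (calsperin), an endoplasmic reticulum chaperone of ADAM3, was at 8.50, 23.9 and 8.13 CPM in TM, against 131.5, 102.1 and 136.4 CPM in WT (-3.17, SE 0.45, adjusted p = 0.000162). *Ace*, whose testis form acts on sperm, fell less (-1.53, SE 0.26, adjusted p = 0.000394), at 15.1, 17.1 and 27.5 CPM in TM, against 64.4, 48.2 and 59.8 CPM in WT. *Tpst2*, a Golgi enzyme that sulfates tyrosines and is not restricted to germ cells, went against the list. It rose in TM, with 57.0, 46.9 and 52.6 CPM against 11.5, 11.4 and 8.21 CPM in WT (2.34, SE 0.26, adjusted p = 4.54e-05). In TAT *Tpst2* rose, *Calr3* and *Ace* fell, and the other 9 were not called, where 14.4% of all genes were called higher and 4.61% lower.

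Of 13 regulators of ADAM10 and ADAM17 in the table, 6 rose and 2 fell in TM, where 27.8% of all genes were called higher and 30.6% lower. The inhibitor *Timp1* was at 69.2, 92.5 and 194.9 CPM in TM, against 2.83, 2.58 and 1.96 CPM in WT (5.62, SE 0.61, adjusted p = 4.39e-05). *Timp3*, the best known inhibitor of ADAM17, was at 134.3, 142.1 and 291.2 CPM in TM, against 9.90, 26.7 and 27.5 CPM in WT (3.13, SE 0.48, adjusted p = 0.000233). Both genes rose in TM, as did *Adam10* and *Adam17*, and inhibition was not measured. *Tspan14*, a tetraspanin partner of ADAM10, rose by 2.02 on the log2 scale (SE 0.37, adjusted p = 0.000666), and *Rhbdf2* (iRhom2), which carries ADAM17 to the cell surface, by 2.09 (SE 0.43, adjusted p = 0.00149). *Rhbdf1* and *Furin* rose too. *Frmd8*, which stabilises iRhoms, was at 18.7, 37.3 and 28.6 CPM in TM, against 55.7, 42.9 and 55.1 CPM in WT (-0.86, SE 0.25, adjusted p = 0.0114). *Tspan33* was at 0.914, 2.65 and 1.18 CPM in TM, against 11.5, 4.002 and 3.48 CPM in WT (-1.93, SE 0.56, adjusted p = 0.0107). In TAT 7 of the 13 rose and none fell, where 14.4% of all genes were called higher and 4.61% lower.

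Among 20 genes whose products ADAM10 or ADAM17 shed, 19 were tested and *Tnf* was left out by the filter. In TM 12 rose and none fell, where 27.8% of all genes were called higher. *Tnfrsf1a*, the type 1 receptor of tumour necrosis factor, was at 35.2, 34.98 and 36.3 CPM in TM, against 9.72, 5.62 and 8.78 CPM in WT (2.16, SE 0.30, adjusted p = 0.000148). *Hbegf*, an EGF receptor ligand, was at 19.6, 30.6 and 15.7 CPM in TM, against 2.30, 1.16 and 0.907 CPM in WT (4.01, SE 0.59, adjusted p = 0.000179). *Kitl*, the KIT ligand made by Sertoli cells, was at 43.4, 61.3 and 25.9 CPM in TM, against 1.41, 4.20 and 5.78 CPM in WT (3.46, SE 0.51, adjusted p = 0.000185). *Cdh2* (N-cadherin) was at 121.7, 164.6 and 340.4 CPM in TM, against 29.2, 53.6 and 35.3 CPM in WT (2.40, SE 0.39, adjusted p = 0.000342). These 4 had the smallest p of the list, and in each every TM sample was above every WT animal, as in 30.9% of all genes. In TAT 6 rose and none fell, where 14.4% of all genes were called higher and 4.61% lower. RNA levels do not show shedding, which was not measured. Of the 4 LGI genes, whose products bind ADAM11, ADAM22 and ADAM23, only *Lgi3* passed in TM, where 27.8% of all genes were called higher. It was at 1.74, 0.564 and 0.131 CPM against 0 CPM in the 3 WT animals. The 0.131 CPM is under the level of 3 counts in that library (0.197 CPM), which is 0.530 CPM in WT animal 79783.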

How the data were processed

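RNAseq libraries were made by the authors from poly(A)-primed RNA with molecular identifiers and sequenced on a NextSeq instrument. The authors deposited expected counts (estimated counts per gene, not normalized) from reads mapped to GRCm38. MultiQC 1.12, FastQC 0.11.9, Picard 2.23.9, Subread 2.0.1 (featureCounts) and STAR 2.6.1d are listed in the processing notes of the submitters, whereas the paper names Salmon. The annotation release, the strand setting and duplicate removal are not given in the sources used here.

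Libraries of an animal and region were summed and rounded, giving 12 libraries of 6349355 to 65236050 counts. They were tested with edgeR 4.0.16 in R 4.3.3 (filterByExpr, TMM and the quasi-likelihood test of glmQLFTest after glmQLFit, with p-values adjusted by Benjamini-Hochberg over every gene tested). Comparisons with WT used 1 fit of all 12 libraries, which shares the spread of all groups. Comparisons between KO regions used a separate fit of the 9 KO libraries, in which animal was a block, since the labels give the same animals for all regions. Deviations from region means correlated at 0.0922 on average within an animal (9 pairs) and at -0.0458 between animals (18 pairs). The test was tried on simulated counts of TM with WT and of N with WT, each fitted alone and without a block. The fit of all 12 libraries and the blocked fit were not simulated, so this does not vouch for them.

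The members and gene lists were chosen with earlier results of these data known. Values per animal are given for up to 8 germ cell and 8 other members with the smallest p in TM against WT, up to 4 members per direction in TAT, members called in N, up to 4 genes of each partner list and called genes against the majority of a list. *Adam2*, *Adam3* and *Adam32* were added for function or position. Alternatives were limma-voom (limma 3.58.1) on 17 libraries, DESeq2 1.42.0, RLE scaling, total library size, no filter, no fold threshold, no replicate block, thinned counts, animal 79813 represented by its testis 1 alone, fits restricted to the groups compared and each animal left out. CPM floors cover counting error only.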

Additional observations from a re-analysis of the deposited data

Results flagged for a closer look

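In groups of 4 to 6 libraries, a library at one end was marked where its gap to the nearest other library exceeded Dixon's critical value on the log scale. Of 93 gene and group combinations 8 were marked, where chance marks about 1 in 20, which would be 4.65. That rate assumes independent libraries, whereas 4 of the 6 TM and 2 of the 4 TAT and N libraries came from animal 79813, so a library of another animal is more easily marked. The TM library of KO animal 79853 was marked for *Adam33* (0 CPM, next library 1.30), *Adam25* (0 CPM, next 1.29), *Adam6b* (0.0692 CPM, next 3.07) and *Adam6a* (0.207 CPM, next 6.42). The TAT library of the same animal was marked for *Adam25* (3.36 CPM, next 8.84) and *Adam6b* (11.5 CPM, next 26.5). The TM and TAT of animal 79853 also had the lowest spermatid marker sums of their groups (1.51% and 15.3% of the WT mean). The other 2 marks were high values, *Adam12* in TAT of animal 79781 (2.80 CPM, next 1.03) and *Adam18* in N from testis 1 of animal 79813 (154.8 CPM, next 116.1).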

How the results depend on the processing

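No fold change of a called member changed sign under any alternative run. In TM against WT the germ cell count was 19 to 20 with an animal left out (main 20) and the other count 5 in each case, but 8 with DESeq2. DESeq2 added *Adam8* and *Adam9*, which were higher, and *Adam11*, which was lower. Total library size also added *Adam8* and *Adam9*, and limma-voom added *Adam11*. In TAT against WT the germ cell count was 0, and 8 with limma-voom on 17 libraries, 9 with DESeq2, 3 with RLE scaling, 3 without a filter, 16 with only the groups compared, 1 with only testis 1 of animal 79813, 4 with thinned counts and 0 to 7 with an animal left out; the other count of 4 became 0 to 4 with an animal left out and was 3 to 5 under the remaining alternatives, the fifth gene being *Adam15* (DESeq2 and total library size). In N against WT 1 germ cell member was called with only the groups compared and 1 other with DESeq2. In TAT against N, 2 germ cell members and 1 other were called with limma-voom, 3 and 1 with DESeq2 and 11 and 1 with only the groups compared. In TM against N the counts were 6 to 20 and 2 to 5 with an animal left out, and in TM against TAT 0 to 20 and 0 to 3. Removing the replicate block (the animal) gave 12 germ cell calls in TM against TAT and moved no other count by over 1.5 times. With 3 animals a group, and fits without KO animal 79781 on 2 KO animals, a count of 0 is no sign that levels were equal. Low members (*Adam12*, *Adam22*, *Adam33*, *Adam7*) are limited by depth.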

Other observations

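The 5 germ cell members with several coding exons (*Adam2*, *Adam3*, *Adam5*, *Adam18* and *Adam32*) kept a larger share of their WT level than most of the 15 with 1 coding exon. This split was chosen after the values were seen and was not tested. In TAT the 5 were at 43.4% to 76.2% of the WT mean (median 61.0%) and the 15 at 24.7% to 58.8% (median 41.4%). In TM the 5 were at 9.86% to 14.2% (median 11.02%) and the 15 at 3.37% to 10.8% (median 7.92%). All 5 lack the zinc site, as do 4 of the 15, which were at 36.6% to 48.5% in TAT. Fractional counts occurred in 11 germ cell members, none of which was among the 5.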
